A study of Mus musculus with 8 samples.

Results

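The Id proteins and the E proteins they bind were described here as a group of 7 genes, chosen by symbol from the 42391 gene entries of the raw counts. The group holds 4 inhibitors (Id1, Id2, Id3 and Id4) and 3 E proteins (Tcf3, Tcf4 and Tcf12), and no expression value was used to choose them. All 7 were found once in the counts. Id1, Id2, Id3, Tcf3, Tcf4 and Tcf12 had enough reads to be tested in both cell types, whereas Id4 passed the filter on low counts in primary myoblasts and not in C2C12 cells.

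RNA was sequenced from 8 samples, which are 2 cell types with 2 siRNAs and 2 replicates each. C2C12 cells, an established mouse myoblast line, had spent 12 h in differentiation medium and were lysed 60 h after transfection. Their siRNA was used at 50 nM, with 100 nM during the first 5 h. Primary myoblasts, isolated from hindlimb muscle of mice, were kept in growth conditions and lysed 48 h after transfection. In each cell type the control received a non-targeting siRNA (labelled scr) and the Septin9-deficient samples received 1 Septin9 siRNA (labelled SEPT9KD), so the controls were transfected as well, and no untransfected sample was analysed here. The labels give no other genetic change and call the control genotype WT. Cell type, medium, differentiation and time after transfection differ together between C2C12 cells and primary myoblasts and cannot be told apart. In bulk RNA, fewer cells that express a gene and less RNA of it per cell cannot be told apart either.

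Between 20898611 and 27223414 reads were counted per sample. Levels are given as normalised read counts in CPM (counts scaled to library size, with TMM factors over all 8 samples). Changes are given as log2 fold changes with their standard error (SE), and their p-values come from the quasi-likelihood method of edgeR, adjusted after Benjamini and Hochberg over all genes tested, with the replicate number as a block for the siRNA. A gene was called when its adjusted p-value was under 0.05. Septin9 itself fell in both cell types, by 1.36 ± 0.08 (SE, log2) in C2C12 cells and by 1.21 ± 0.15 (SE, log2) in primary myoblasts. The replicates stood apart: replicates 2 and 1 differed in 35.7% of the genes tested in C2C12 cells and in 24.5% in primary myoblasts, against 6.75% and 4.99% between the siRNAs. All 8 myoblast markers examined reached 1 CPM in all 4 groups, while the endothelial markers summed to at most 9.59 CPM and the immune markers to at most 5.15 CPM. Primary myoblasts are labelled as proliferating, yet Myog, the myogenic factor switched on at commitment to differentiation, stood at 1019.9 and 401 CPM in their controls and at 5.19 and 37.5 CPM in control C2C12 cells.

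E proteins are basic helix-loop-helix (bHLH) transcription factors present in many tissues. In muscle they pair with MyoD, myogenin and their relatives, and these dimers bind the E-box, a short DNA motif in the enhancers of muscle genes. Id proteins hold a helix-loop-helix but no basic region, so they pair with E proteins without binding DNA and keep them from the myogenic factors. They are typically high in proliferating cells, fall when myoblasts differentiate, and are known targets of bone morphogenetic protein (BMP) signalling and of serum.

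The sequence before an annotated start is shown for the 3 Id genes with an entry in the promoter table used, because they were higher together in 1 cell type. It is also shown for Tcf3, an E protein whose level was alike in both cell types, as a contrast. Each line gives the 250 bases upstream of an annotated RefSeq start on GRCm38.p6, 5′ to 3′ on the gene's strand. Letters are in lower case, with every E-box (CANNTG, where N is any base) in capitals. The Tcf3 window lies inside the span of its gene, which reaches to 80433976. It thus stands before an internal start and not before the outermost start of Tcf3.
Id2, chr12:25096093-25096342, minus strand: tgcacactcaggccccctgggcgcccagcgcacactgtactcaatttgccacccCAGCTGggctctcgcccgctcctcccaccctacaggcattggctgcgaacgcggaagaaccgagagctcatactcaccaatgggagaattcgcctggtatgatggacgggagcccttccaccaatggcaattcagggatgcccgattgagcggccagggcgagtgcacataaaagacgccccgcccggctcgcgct
Id3, chr4:136143572-136143821, plus strand: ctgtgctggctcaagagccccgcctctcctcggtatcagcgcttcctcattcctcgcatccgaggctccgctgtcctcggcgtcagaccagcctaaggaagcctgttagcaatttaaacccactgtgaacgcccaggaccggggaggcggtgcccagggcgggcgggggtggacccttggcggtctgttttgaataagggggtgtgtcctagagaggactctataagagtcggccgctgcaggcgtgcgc
Id4, chr13:48260866-48261115, plus strand: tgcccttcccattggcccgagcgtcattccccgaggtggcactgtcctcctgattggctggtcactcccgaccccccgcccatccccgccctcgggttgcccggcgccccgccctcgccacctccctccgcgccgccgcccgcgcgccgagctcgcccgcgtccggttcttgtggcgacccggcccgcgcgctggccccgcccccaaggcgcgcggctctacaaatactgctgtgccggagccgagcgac
Tcf3, chr10:80433636-80433885, minus strand: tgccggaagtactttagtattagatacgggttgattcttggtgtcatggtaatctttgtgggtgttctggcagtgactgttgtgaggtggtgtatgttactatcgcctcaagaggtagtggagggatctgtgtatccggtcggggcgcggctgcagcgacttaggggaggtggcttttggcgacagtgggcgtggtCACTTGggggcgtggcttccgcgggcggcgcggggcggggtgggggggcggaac
The Id2 window held 1 E-box, CAGCTG, from base -196 to -191 before the start, and the Tcf3 window held 1, CACTTG, from -54 to -49. The Id3 and Id4 windows held no match to CANNTG. This motif, which reads the same on both strands as a pattern, was found in 66.2% of all 32851 windows of the same length, so its presence or absence is common. The GC box GGGCGG, searched on both strands, was matched 1 time in the Id2 window, 2 times in that of Id3, 5 times in that of Id4 and 3 times in that of Tcf3, and 32.7% of all windows held it at least once. Matches of GGGCGG may overlap, as they do in Id3. CCAAT, also on both strands, was matched 3 times before Id2 and 2 times before Id4, and 33.9% of all windows held it. GGCGCC was matched 1 time before Id2 and 1 time before Id4, and 9.59% of all windows held it. TATAAA, searched on both strands, was matched in none of the windows shown, and 12.4% of all windows held it. These matches describe letters in a window and not binding, which was not measured.

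The 4 Id genes are short and lie on separate chromosomes, Id2 on chromosome 12 from 25093799 to 25096092 (GRCm38, RefSeq). Id3 lies on chromosome 4 from 136143822 to 136145392 and Id4 on chromosome 13 from 48261116 to 48266028. Id1 lies on chromosome 2 from 152736251 to 152737410. The E protein genes are longer and have more transcripts. Tcf3 lies on chromosome 10 from 80409541 to 80433976, and Tcf12 on chromosome 9 from 71844252 to 72111893. They have 10 and 5 coding transcripts in the basic annotation of GENCODE, and Tcf4 has 24. Counts were summed over all transcripts of a gene, so no isoform could be followed.

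The first comparison asked how high each gene stood in the 2 controls. Id1, Id2 and Id3 were higher in control primary myoblasts than in control C2C12 cells, by between 7.35-fold and 10.8-fold. Of the E proteins, Tcf4 was lower and Tcf3 and Tcf12 did not pass. Of the 6 members with enough reads in both cell types 4 were called, 3 higher and 1 lower in primary myoblasts. Id4 passed the filter only through primary myoblasts, where it is high, so it had to differ and is given as a description. Among all 17103 genes tested in this comparison 34.5% were called, 18.3% higher and 16.2% lower. In the same controls 18 of 20 muscle genes with E-box enhancers were higher in primary myoblasts and 0 lower, with a median log2 difference of 4.84, although these cells are labelled as proliferating and the C2C12 cells as differentiating. Id1, Id2 and Id3 were called under all 13 alternative settings at an adjusted p-value under 0.05, and their log2 fold changes lay between 2.67 and 3.53.

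Id1, an inhibitor known as a direct BMP target, was at 16.4 and 18.9 CPM in the control C2C12 replicates 1 and 2 and at 183 and 198 CPM in those of primary myoblasts. The controls of the 2 cell types did not overlap, and the log2 fold change was 3.44 ± 0.16 (SE, n = 2 per group, adjusted p = 0.00225 from edgeR). Id2, the inhibitor also known for its part in cell cycle control, was at 17.7 and 19.0 CPM in C2C12 cells and at 163 and 167 CPM in primary myoblasts. Its log2 fold change was 3.17 ± 0.14 (SE, n = 2 per group, adjusted p = 0.00216 from edgeR), which is 9.02-fold. Id3, a close relative of Id1, had the highest CPM of the Id genes in the controls of either cell type. It was at 48.4 and 64.4 CPM in C2C12 cells and at 380.2 and 445 CPM in primary myoblasts. The difference was 2.88 ± 0.21 (SE, log2, n = 2 per group, adjusted p = 0.00392 from edgeR).

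Id4, the most divergent member of the family, was almost unread in C2C12 cells, with 4 and 8 raw counts in the controls and 9 and 6 in the Septin9-deficient samples. In primary myoblasts it had 408 and 300 raw counts in the controls, or 17.5 and 11.2 CPM. The fitted log2 difference between the controls was 5.87 ± 0.45 (SE, n = 2 per group), and its size rests on the 12 reads of the C2C12 controls. The antisense gene A330033J07Rik overlaps Id4 by 1396 bases and was at 1.46 and 1.23 CPM in the primary myoblast controls. Whether the counting used strand is not given in the sources used here, so reads of the pair may not be separated.

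Tcf3, which encodes the E proteins first found at immunoglobulin enhancers, did not pass the test between the controls. Its levels were 141 and 131 CPM in C2C12 cells and 126 and 147 CPM in primary myoblasts, and these ranges overlapped (log2 fold change 0.01 ± 0.15, SE, n = 2 per group, adjusted p = 0.949 from edgeR). Tcf12, the E protein also called HEB, had 207 and 282 CPM in C2C12 cells and 214 and 185 CPM in primary myoblasts, again with overlap (-0.29 ± 0.21, SE, n = 2 per group, adjusted p = 0.326 from edgeR). Tcf4, the third E protein, was lower in primary myoblasts, at 154 and 115 CPM against 220.1 and 350.4 CPM in C2C12 cells. The log2 difference was -1.07 ± 0.29 (SE, n = 2 per group, adjusted p = 0.0440 from edgeR). This call was lost when control C2C12 replicate 1 (adjusted p = 0.0585), control C2C12 replicate 2 (adjusted p = 0.159, log2 fold change -0.71) or control primary myoblast replicate 2 (adjusted p = 0.104) was left out of edgeR's fit.

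**Figure D1:**
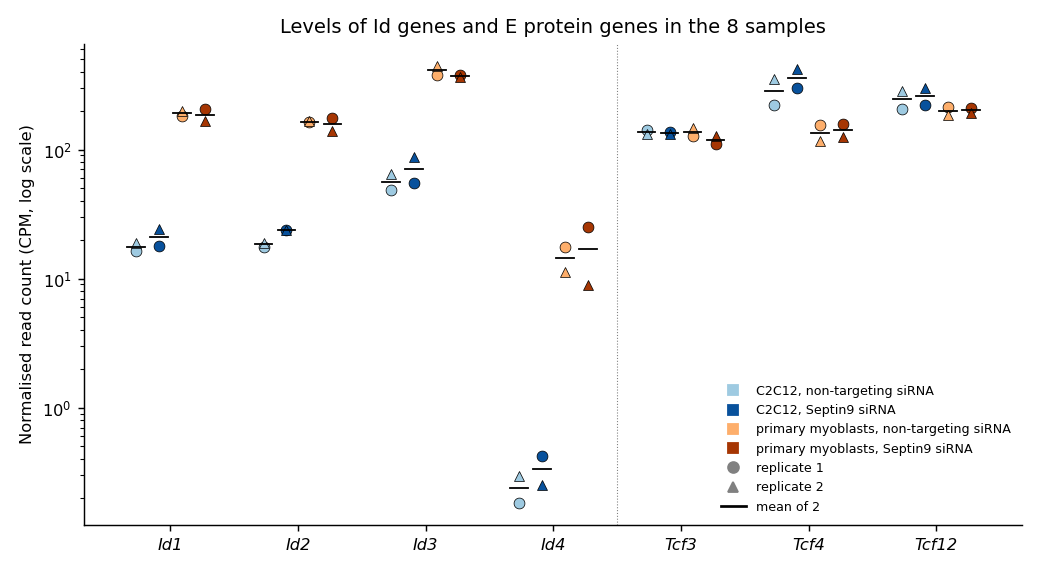
Normalised read counts (CPM, log axis) of the 4 Id genes and 3 E protein genes in the 8 samples; circles are replicate 1, triangles replicate 2, lines the mean of 2. Primary myoblasts sit above C2C12 cells for each Id gene, with Id4 under 1 CPM in C2C12 cells, while the E proteins lie between 109 and 418 CPM in all samples.

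Markers of other cell types differed between the cell types too. The fibroblast or mesenchymal progenitor markers summed to 2392 to 3103 CPM in the C2C12 controls and 357 to 635 CPM in primary myoblast controls. These sums came mostly from Col3a1. Thy1 was at 0 in the former and between 0.516 and 8.55 CPM in the latter. Pdgfra was at 9.42 to 15.0 CPM in the former and at 1.03 to 31.7 CPM in the latter. Dcn was at 0.501 to 2.72 CPM and at 0.258 to 13.3 CPM, so the 2 primary myoblast controls stood far apart in both. Ly6a (34.1 to 59.6 and 6.92 to 14.4 CPM) and Cd34 (87.4 to 91.5 and 4.77 to 27.4 CPM) were higher in C2C12 controls. Between the controls Ly6a was called and Cd34 was not. Lum and Dpt stayed under 1 CPM. The 8 endothelial markers, a cell type in which Id1 and Id3 are known to be high, summed to between 1.10 and 1.73 CPM and between 2.71 and 7.14 CPM, and Tie1 was at 0 in all 8 samples. The 8 Schwann cell markers summed to between 6.74 and 8.65 CPM and between 43.2 and 95.1 CPM, mostly from Erbb3, while Sox10 did not exceed 0.223 CPM in any sample. Immune markers summed to between 2.00 and 2.17 CPM and between 4.28 and 4.64 CPM. The part of such cells in the Id levels was not tested.

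Lengths came from GENCODE M21, while the paper names an earlier GENCODE release for the counting, so the exons counted may differ. Levels of different genes were compared only per length, as CPM per kb of the merged exons of a gene. On this scale the order of the Id genes was Id3, Id1, Id2, Id4 in the controls of both cell types, with no overlap of the replicates between neighbours. In C2C12 controls Id3 was at 31.5 ± 6.31 CPM per kb (SD, n = 2), Id1 at 15.3 ± 1.53, Id2 at 7.53 ± 0.38 and Id4 at 0.062 ± 0.021. In primary myoblast controls the same genes were at 230.4 ± 25.6, 164 ± 9.29, 67.6 ± 1.06 and 3.73 ± 1.17 CPM per kb (SD, n = 2). Id3 thus made up 57.8% of the summed Id level per kb in C2C12 controls and 49.4% in primary myoblast controls, and Id1 28.2% and 35.3%.

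The order of the E proteins depended on the length used and is not settled here. Per kb of merged exons it was Tcf3, Tcf12, Tcf4 in both controls, at 33.7 ± 1.72, 15.8 ± 3.42 and 10.4 ± 3.36 CPM per kb in C2C12 cells (SD, n = 2). Per kb of the median coding transcript, Tcf4 came first in C2C12 controls with 121 ± 39.2 CPM per kb, followed by Tcf12 with 56.8 ± 12.3 and Tcf3 with 48.0 ± 2.44 (SD, n = 2), and the last 2 overlapped. The merged exons of Tcf4 hold 27382 bases against 2348.5 in its median coding transcript.

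The summed Id level relative to the summed E protein level was higher in primary myoblasts with either length. Per kb of merged exons this ratio was 0.862 and 0.948 in the C2C12 controls and 8.70 and 9.34 in the primary myoblast controls. Per kb of median coding transcript it was 0.353 and 0.320 against 3.78 and 4.67. In the controls the ratio was under 1 in C2C12 cells and above 1 in primary myoblasts with either length, while its size depended on the length. RNA levels were measured and not proteins or dimers.

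**Figure D2:**
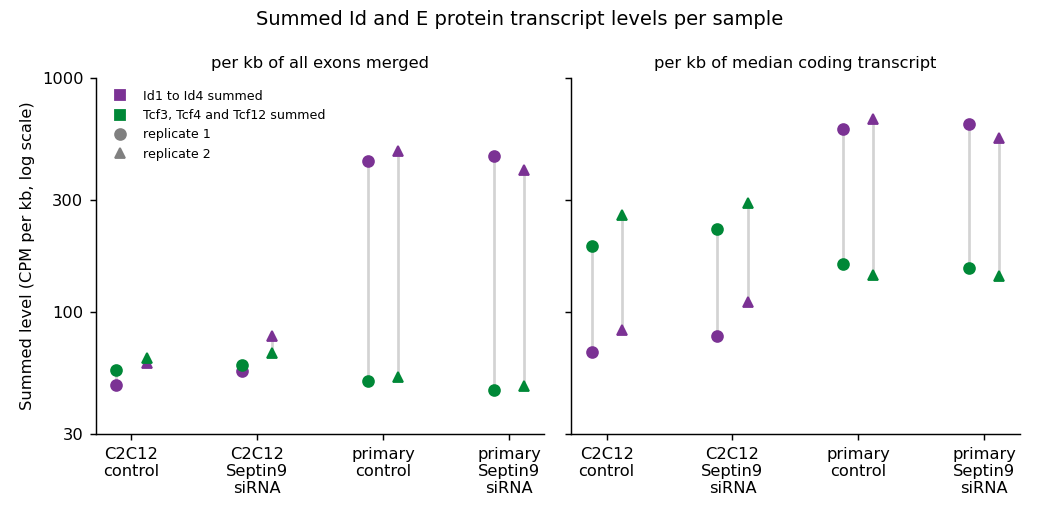
Summed levels per sample of the Id genes (purple) and the E protein genes (green) in CPM per kb on a log axis, per kb of merged exons (left) and of the median coding transcript (right). In control C2C12 cells the Id sum lies at 48.5 and 60.2 CPM per kb of merged exons. In control primary myoblasts it lies at 441 and 490.4. Per kb of merged exons the E protein sum stays between 46.4 and 66.8 in all 8 samples. Per kb of median coding transcript the E protein sum lies at 191.5 and 260.9 in C2C12 controls and at 160 and 143.8 in primary myoblast controls.

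After Septin9 siRNA in C2C12 cells, Id2, Id3 and Tcf4 rose, by between 23.3% and 28.1%. These are 3 of the 6 members tested, against 6.75% of all 15814 genes called, 2.64% higher and 4.12% lower. None of the 3 reached a 1.5-fold change. With scaling by library size alone the split of all called genes moved from 417 higher and 651 lower to 716 higher and 685 lower, and the same 3 members were called.

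Id2 went from 17.7 to 23.6 CPM in replicate pair 1 and from 19.0 to 23.7 CPM in pair 2. Both Septin9-deficient samples lay above both controls, and the log2 fold change was 0.36 ± 0.09 (SE, n = 2 per group, adjusted p = 0.0201 from edgeR). Id3 went from 48.4 to 54.5 CPM in pair 1 and from 64.4 to 86.7 CPM in pair 2. Its groups overlapped, because control replicate 2 was above Septin9-deficient replicate 1, and the change was seen within pairs, with log2 ratios of 0.15 and 0.44 and a log2 fold change of 0.30 ± 0.08 (SE, n = 2 per group, adjusted p = 0.0212 from edgeR). Tcf4 went from 220.1 to 300.4 CPM in pair 1 and from 350.4 to 418 CPM in pair 2. The groups overlapped here too, and the log2 fold change was 0.34 ± 0.07 (SE, n = 2 per group, adjusted p = 0.00424 from edgeR).

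Id1 was higher in both Septin9-deficient C2C12 samples than in the control of its pair, at 18.0 against 16.4 CPM and at 24.3 against 18.9 CPM, and did not pass the test (log2 fold change 0.25 ± 0.10, SE, n = 2 per group, adjusted p = 0.171 from edgeR). Tcf3 had 141 and 131 CPM in the controls and 137 and 131 CPM in the Septin9-deficient samples (-0.03 ± 0.07, SE, n = 2 per group, adjusted p = 0.881 from edgeR). Tcf12 had 207 and 282 CPM in the controls and 219.8 and 298 CPM after Septin9 siRNA (0.08 ± 0.07, SE, n = 2 per group, adjusted p = 0.616 from edgeR). Id4 was not tested, and its pairs went from 0.18 to 0.42 CPM and from 0.29 to 0.25 CPM on fewer than 10 reads each.

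The calls in C2C12 cells depended on the fit. Without the replicate block no member was called, with every adjusted p-value of edgeR at 1.0, and no gene of all 15814 was called either. DESeq2 with the block called Tcf4 (adjusted p = 0.00791) and neither Id2 (log2 fold change 0.36, adjusted p = 0.573) nor Id3 (0.29, adjusted p = 0.372), with fold changes close to those of edgeR. DESeq2 on the deposited batch-corrected counts called Tcf4 (adjusted p = 8.5e-07) and Id3 (adjusted p = 0.0273) and not Id2 (adjusted p = 0.137). The batch effect had already been removed from these counts, using the same samples, and this fit had no block. Its SE for Tcf4 was 0.059, against 0.088 for DESeq2 with the block, so its p-values are not on the same footing.

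In primary myoblasts 0 of the 7 members were called by edgeR or DESeq2, and 0 had an unadjusted p-value under 0.05, while 4.99% of all 17117 genes tested were called, 3.95% higher and 1.04% lower. Id1 went from 183 to 204 CPM in pair 1 and from 198 to 166 CPM in pair 2. The pairs moved in opposite directions, and so did those of Id2, from 163 to 175 CPM and from 167 to 140.2 CPM. The log2 fold changes were -0.05 ± 0.12 for Id1 (SE, n = 2 per group, adjusted p = 0.910 from edgeR) and -0.07 ± 0.12 for Id2 (SE, n = 2 per group, adjusted p = 0.840 from edgeR). Id3 went from 380.2 to 379 CPM and from 445 to 362 CPM, with a log2 fold change of -0.15 ± 0.13 (SE, n = 2 per group, adjusted p = 0.637 from edgeR). Id4 went from 17.5 to 25.2 CPM in pair 1 and from 11.2 to 8.92 CPM in pair 2, again in opposite directions (0.14 ± 0.17, SE, n = 2 per group, adjusted p = 0.753 from edgeR).

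Of the E proteins in primary myoblasts, Tcf3 was lower in both pairs, at 109 against 126 CPM and at 127 against 147 CPM. Its log2 fold change of -0.21 ± 0.11 did not pass (SE, n = 2 per group, adjusted p = 0.362 from edgeR). Tcf4 had 154 and 115 CPM in the controls and 156 and 126 CPM after Septin9 siRNA (0.08 ± 0.11, SE, n = 2 per group, adjusted p = 0.809 from edgeR), and Tcf12 had 214 and 185 CPM and then 211 and 190.2 CPM (0.01 ± 0.11, SE, n = 2 per group, adjusted p = 0.974 from edgeR). With replicate 1 of primary myoblasts left out, Id3 passed the test in the fit of all samples (log2 fold change -0.29, adjusted p = 0.0392 from edgeR), as did 2020 of all 18131 genes.

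**Figure D3:**
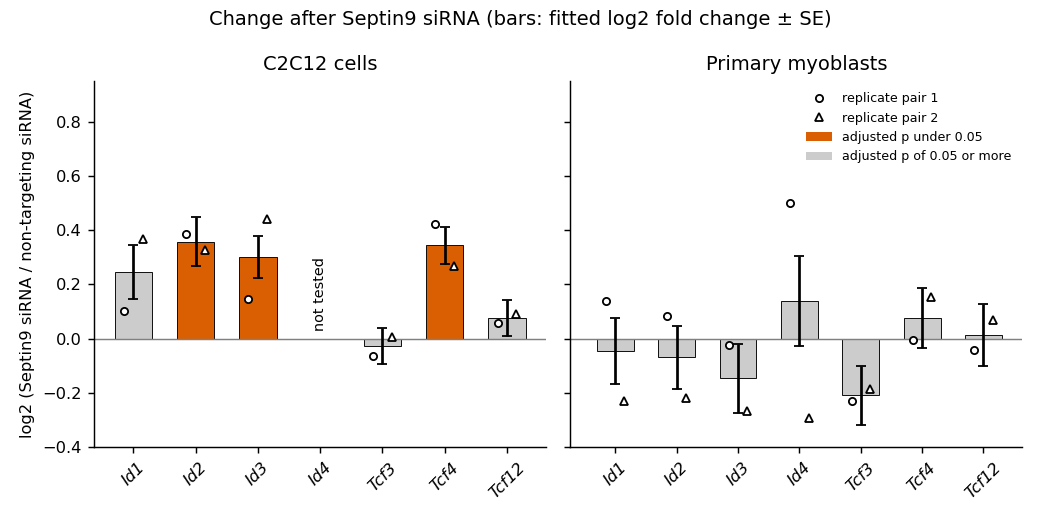
Fitted log2 fold change after Septin9 siRNA (bars, with SE) and the log2 ratio within each replicate pair (circles pair 1, triangles pair 2) in C2C12 cells (left) and primary myoblasts (right); orange bars have an adjusted p-value under 0.05. Id2, Id3 and Tcf4 are orange in C2C12 cells at 0.36, 0.30 and 0.34, and no bar is orange in primary myoblasts.

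Whether the change differed between the cell types was tested by the interaction term over all 8 samples. None of the 7 members passed, and 0.0% of all 17918 genes were called by edgeR, with 1469 at an unadjusted p-value under 0.05, while DESeq2 called 21 genes. The difference (primary myoblasts minus C2C12, log2) was -0.45 ± 0.15 for Id3 and -0.44 ± 0.15 for Id2 (SE, adjusted p = 0.452 for both from edgeR), -0.30 ± 0.16 for Id1 (SE, adjusted p = 0.692 from edgeR) and -0.28 ± 0.13 for Tcf4 (SE, adjusted p = 0.608 from edgeR). Without replicate 1 of primary myoblasts, edgeR gave adjusted p-values of 0.0169 for Id1, 0.00196 for Id2 and 0.00103 for Id3, and under this setting 844 of all 18131 genes passed.

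The replicates are independent experiments, and several members had larger log2 differences between them than between the siRNAs, although the sizes of the 2 differences were not tested against each other. In C2C12 cells 4 of the 6 members tested differed between replicates 2 and 1, against the 35.7% of all genes given above, and in primary myoblasts 2 of 7, against 24.5%. Tcf4 was higher in replicate 2 of C2C12 cells by 0.54 ± 0.07 (SE, log2, adjusted p = 5.12e-06 from edgeR), and Id3 by 0.51 ± 0.08 (SE, log2, adjusted p = 3.55e-05 from edgeR). Tcf12, which did not pass for the siRNA, was higher by 0.41 ± 0.07 (SE, log2, adjusted p = 6.51e-05 from edgeR), and Id1 by 0.29 ± 0.10 (SE, log2, adjusted p = 0.0269 from edgeR). Id2 was the member called for the siRNA and not for the replicate (0.02 ± 0.09, SE, log2, adjusted p = 0.863 from edgeR).

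In primary myoblasts Id4 was lower in replicate 2, by a log2 change of -1.04 ± 0.17 (SE, adjusted p = 0.000109 from edgeR). It had 408 and 563 raw counts in control and Septin9-deficient replicate 1 and 300 and 187 in replicate 2. Tcf4 was lower as well (-0.34 ± 0.11, SE, log2, adjusted p = 0.0311 from edgeR), which is the opposite direction to C2C12 cells, where the replicates are other experiments. The 2 control replicates differed in Myog as well, by the values given above for both cell types.

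**Figure D4:**
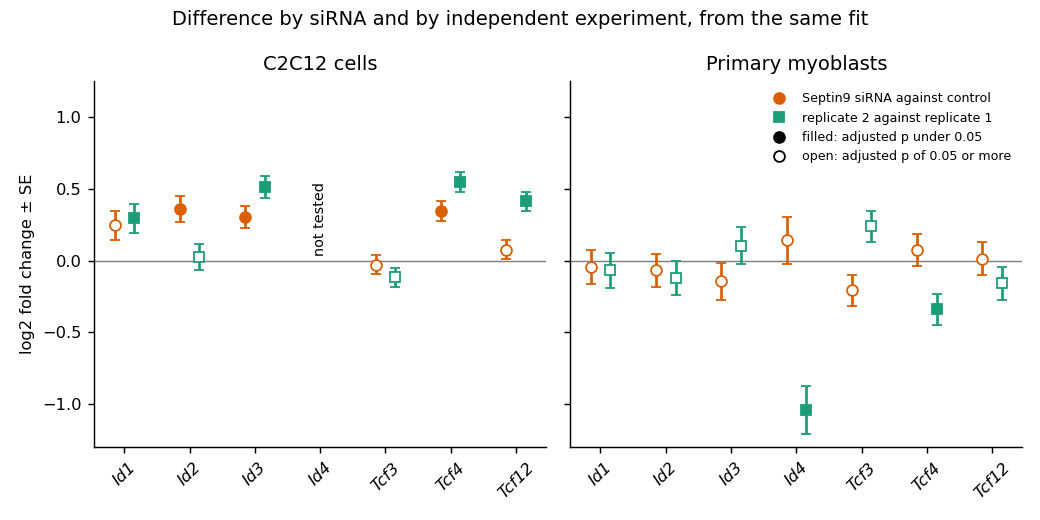
Log2 fold change with SE for Septin9 siRNA against control (orange circles) and for replicate 2 against replicate 1 (green squares), from the same fit in C2C12 cells (left) and primary myoblasts (right); filled symbols have an adjusted p-value under 0.05. Tcf4, Id3 and Tcf12 lie higher for the replicate than for the siRNA in C2C12 cells, and Id4 lies at -1.04 for the replicate in primary myoblasts.

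Genes around the Id proteins were followed as lists. For every list count below, the shares of all genes called were 2.64% higher and 4.12% lower in C2C12 cells. In primary myoblasts these shares were 3.95% higher and 1.04% lower. Of the 20 E-box muscle genes, which dimers of E proteins and myogenic factors are known to activate, 12 were higher and 0 lower in C2C12 cells, where 2.64% of all genes were called higher. Their median log2 fold change was 0.50 against -0.00 over all genes. In primary myoblasts 14 of 20 were higher and 0 lower, where 3.95% of all genes were called higher, with a median of 0.78 against 0.01. The study itself examined myogenic genes in these samples, so this direction is not independent evidence. Des, the muscle intermediate filament gene, went from 437 to 652 CPM and from 507 to 677 CPM in C2C12 cells (log2 fold change 0.49 ± 0.07, SE, n = 2 per group, adjusted p = 0.000261 from edgeR). Ckm, muscle creatine kinase, went from 86.6 to 133 CPM and from 21.3 to 70.0 CPM in primary myoblasts (1.15 ± 0.18, SE, n = 2 per group, adjusted p = 0.000852 from edgeR). Id2 and Id3 thus rose in C2C12 cells in the same samples as these muscle genes. Of 3 Schwann cell markers tested, with a median log2 fold change of -0.14, Erbb3 alone was called, higher in Septin9-deficient primary myoblasts (1.13 ± 0.19, SE, n = 2 per group, adjusted p = 0.00186 from edgeR), where the summed list ran from 118 to 132 CPM, and of 6 fibroblast markers, with a median of 0.07, Thy1 alone was called, higher (0.80 ± 0.22, SE, n = 2 per group, adjusted p = 0.0431 from edgeR) while their sum ran from 327 to 667 CPM. In C2C12 cells 1 of 5 fibroblast markers tested was called, Cd34, which was lower while the median of the 5 was 0.07 (-0.36 ± 0.07, SE, n = 2 per group, adjusted p = 0.00320 from edgeR). The part of such cells in the list counts was not tested.

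Of the tissue-restricted bHLH partners of E proteins, 2 of 9 tested were higher in C2C12 cells, Myod1 and Myog, and 0 lower. Myod1, the myogenic determination factor, went from 65.2 to 93.7 CPM and from 94.4 to 140.1 CPM (0.54 ± 0.07, SE, n = 2 per group, adjusted p = 4.57e-05 from edgeR). Myog went from 5.19 to 15.9 CPM and from 37.5 to 63.7 CPM (1.03 ± 0.12, SE, n = 2 per group, adjusted p = 2.28e-05 from edgeR). In primary myoblasts 3 of 10 were higher, Myog, Scx and Tal2, and 1 lower, Myf5. Scx, the tendon bHLH factor, rose by a log2 fold change of 0.73 ± 0.11 (SE, n = 2 per group, adjusted p = 0.000675 from edgeR). Myf5, a factor of undifferentiated myoblasts, went from 47.9 to 38.1 CPM and from 32.6 to 13.3 CPM (-0.78 ± 0.16, SE, n = 2 per group, adjusted p = 0.00679 from edgeR).

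Other repressors that bind E-boxes or related HLH factors were mostly not called. In C2C12 cells 1 of 15 was higher, Heyl, a Notch target (0.58 ± 0.12, SE, n = 2 per group, adjusted p = 0.00419 from edgeR), and in primary myoblasts 3 of 16, Hey1, Heyl and Hes6. Hey1, also a Notch target, went from 6.83 to 12.3 CPM and from 3.79 to 7.30 CPM. None of this list was lower. Of the cyclin kinase inhibitors, Cdkn1a (p21) was higher in both cell types, by 0.38 ± 0.07 in C2C12 cells (SE, n = 2 per group, adjusted p = 0.00319 from edgeR) and 0.53 ± 0.15 in primary myoblasts (SE, n = 2 per group, adjusted p = 0.0391 from edgeR). These were 1 of 4 tested in C2C12 cells and 2 of 6 in primary myoblasts, where Cdkn1c was higher too, with a log2 fold change of 1.24 ± 0.18 (SE, n = 2 per group, adjusted p = 0.000656 from edgeR).

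The BMP pathway lies upstream of Id1, Id2 and Id3. Among its ligands and extracellular inhibitors 2 of 12 were higher in C2C12 cells, Chrd and Chrdl1, and 2 lower, Bmper and Grem1, all of which bind BMP ligands. Grem1, a BMP antagonist, went from 241 to 152 CPM and from 226 to 169.6 CPM (-0.54 ± 0.07, SE, n = 2 per group, adjusted p = 0.000105 from edgeR). Bmper went from 44.0 to 27.0 CPM and from 59.6 to 41.7 CPM (-0.61 ± 0.08, SE, n = 2 per group, adjusted p = 4.26e-05 from edgeR). In primary myoblasts 2 of 17 were higher, the antagonists Chrd and Nog, and 0 lower, with log2 fold changes of 0.87 ± 0.18 and 0.75 ± 0.18 (SE, n = 2 per group, adjusted p = 0.00737 and 0.0217 from edgeR).

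Of the BMP receptors and Smads, 0 of 23 were higher in C2C12 cells and 1 lower, against 4.12% of all genes called lower. The 1 called was Tob1 (-0.24 ± 0.07, SE, n = 2 per group, adjusted p = 0.0480 from edgeR). In primary myoblasts 2 of 24 were higher and 0 lower. These were Hjv, the BMP co-receptor hemojuvelin, which is known to be high in skeletal muscle (1.03 ± 0.14, SE, n = 2 per group, adjusted p = 0.000464 from edgeR), and Smad6, an inhibitory Smad and itself a known BMP target, which went from 12.6 to 17.3 CPM and from 12.3 to 18.8 CPM (0.54 ± 0.14, SE, n = 2 per group, adjusted p = 0.0275 from edgeR).

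Serum is another known input to Id expression, and of the immediate-early genes that respond to it 3 of 24 were lower in C2C12 cells, Klf6, Srf and Ier5, and 0 higher. Srf, the serum response factor, went from 100.2 to 65.2 CPM and from 109.5 to 88.3 CPM (-0.47 ± 0.08, SE, n = 2 per group, adjusted p = 0.000976 from edgeR). In primary myoblasts 2 of 24 were lower, Klf6 and Myc, and 1 higher, Jund. Of the genes for turnover and cofactors of Id and E proteins, Fzr1, an activator of the ubiquitin ligase that targets Id proteins, was lower in both cell types, by -0.54 ± 0.08 in C2C12 cells (log2 and SE, n = 2 per group, adjusted p = 0.000136 from edgeR) and -0.43 ± 0.11 in primary myoblasts (log2 and SE, n = 2 per group, adjusted p = 0.0311 from edgeR). It was the 1 called gene of 14 tested in C2C12 cells, and in primary myoblasts Ldb1 was lower and Cbfa2t3 higher as well, 3 of 16.

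**Figure D5:**
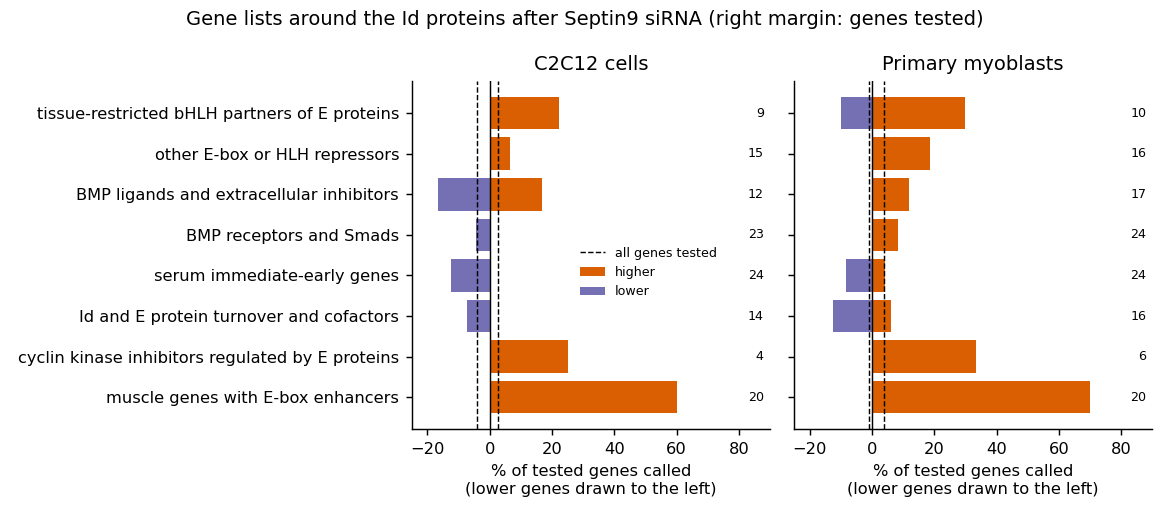
Share of the tested genes of each list called higher (right of 0) or lower (left of 0) after Septin9 siRNA in C2C12 cells and primary myoblasts, with dashed lines for the share of all genes tested and the number tested at the right margin. The muscle gene list stands at 12 of 20 higher in C2C12 cells and 14 of 20 in primary myoblasts. The other lists hold at most 3 called genes in either direction, but they differ in size. In primary myoblasts 2 of 6 cyclin kinase inhibitors, 3 of 10 bHLH partners and 3 of 16 repressors were higher, against 3.95% of all genes. Of these 3 lists, 1 bHLH partner was lower.

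The members were also compared with each other and with all genes over the 8 samples, as Pearson's r of log2 CPM after the mean of each cell type was removed. Samples of an experiment share their deviation, so these values describe experiment and siRNA together and carry no test. Among members the highest r were 0.93 between Tcf4 and Tcf12 and 0.91 between Id1 and Id3, whereas Tcf3 was negative with each of the other 6. Of 13646 genes compared, those most like the 6 members tested in both cell types (Id4 was left out for its low counts) were Apbb3 (r = 0.97) and Krt10 (0.95) for Id1, Ahsa2 (0.96) and Aldh4a1 (0.96) for Id2, and Gm10778 (0.99) and LOC101056300 (0.98) for Id3. For the E proteins they were Dpysl2 (0.99) and Inf2 (0.99) for Tcf3, LOC115489488 (0.99) and Psap (0.99) for Tcf4, and Akap8l (0.99) and Dtx4 (0.99) for Tcf12.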

How the data were processed

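The authors mapped reads of polyA RNA to GRCm38.p6 with STAR 2.7.2, counted them per gene with featureCounts 2.0.1 and deposited these raw counts for the 8 samples. A normalized signal per cell type was deposited too, namely counts adjusted by ComBat-Seq and divided by DESeq2 size factors, of which 100% of values were within 0.01 of a whole batch-corrected count. The authors' processing notes name DESeq2 1.40.1.

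From the raw counts 16 broken lines, which split 5 genes, were left out. Samples were grouped by their labels, with 2 per group, and total counts ran from 20898611 to 27223414. In R 4.3.3, edgeR 4.0.16 (filterByExpr, TMM, quasi-likelihood test, Benjamini-Hochberg) was fitted on all genes of each cell type blocked by replicate number, since replicates are independent experiments by the study's methods. Samples of the same number deviated together from the group means (correlation over genes 0.678 for C2C12 and 0.820 for primary myoblasts). The 4 controls were compared without the block, and the interaction over 8 samples with a block within each cell type. For the siRNA and the interaction, p-values rest on how far the changes within 2 replicate pairs disagree, with variance estimates that borrow from all genes. The block removes the difference between the experiments themselves. Between the controls, p-values rest on the spread of 2 replicates per cell type. Ratios of replicate pairs used a prior count of 2 and TMM within the cell type. Lengths and transcript numbers came from GENCODE M21, gene positions and promoters from RefSeq, both on GRCm38. The fits were run on simulated counts with the same dispersion for every gene. For the siRNA these counts held no difference between experiments, so they do not show how the fits handle one.

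Members, lists and tests were chosen with earlier results of these data known. Genes named are Septin9, the members, up to 3 called genes per list and siRNA comparison with the smallest adjusted p-values, and the 2 genes most like each member but Id4, which was too low in C2C12 cells. Tal2, Chrd in C2C12 cells, Tie1, Sox10, Col3a1, Tcf7l1, Tcf7l2 and A330033J07Rik were named after their values were seen. So were the fibroblast markers Pdgfra, Dcn, Ly6a, Lum and Dpt, and Cd34 between the controls. Alternatives were RLE or library size scaling, other count filters, DESeq2 1.42.0 on raw or batch-corrected counts, stricter thresholds, fits with or without the block, fits of all samples, and samples left out. Python 3.11.15, pandas 2.3.3, numpy 2.4.6 and matplotlib 3.10.9 were used for other steps.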

Additional observations from a re-analysis of the deposited data

Results flagged for a closer look

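Id3 was higher after Septin9 siRNA in both C2C12 pairs (log2 ratios 0.15 and 0.44). In the primary myoblast pairs its log2 ratios were -0.02 and -0.27. It was flagged because these signs are opposite in the 2 cell types, but pair 1 of primary myoblasts was almost unchanged (380.2 and 379 CPM). The difference of the changes was -0.45 ± 0.15 (SE, log2) and did not pass edgeR's interaction test over all genes (unadjusted p = 0.0119, adjusted p = 0.452). Over its 12 alternative settings the difference lay between -0.58 and -0.30, with adjusted p-values from 0.00103 (without replicate 1 of primary myoblasts) to 1.0.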

How the results depend on the processing

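Of 342 member changes under alternative settings, 300 kept their direction and side of the threshold, 26 lost the call, 4 gained it and 12 changed sign. The settings with a fold change of at least 1.5 and with an adjusted p-value under 0.01 reused the main estimates. Under them a direction could not change and a call could only be lost, so the 300 include outcomes fixed in advance. Precision is limited by 2 experiments per cell type. In C2C12 cells 3 members were called after Septin9 siRNA, against 0 with no replicate block, 0 in a fit of all 8 samples, 0 at a fold change of at least 1.5, 1 with DESeq2 in the same design and 1 at an adjusted p-value under 0.01, and 0 to 0 with a replicate pair left out, in the fit of all samples, which called none when complete. In primary myoblasts 0 were called, and 0 to 1 with a pair left out. The interaction had 0, and 0 to 3 with a pair left out. Leaving out a pair moved the calls over all genes as well, as given above without primary myoblast replicate 1. For the siRNA these fits were of all samples, so their calls are not comparable with those of 1 cell type alone. The complete fit of all samples called 716 genes for the siRNA in primary myoblasts and 111 in C2C12 cells. Each cell type alone gave 854 and 1068. For the interaction, no filter on low counts gave 255 calls over all genes, against 0 in the main fit. Between the controls 5 were called with Id4 counted, and 3 at 10 counts or more in every sample, where Id4 is not tested and Tcf4 had an adjusted p of 0.0527 from edgeR. With the replicate block, Tcf4 lost its call between the controls (adjusted p = 0.0771 from edgeR), and the other 4 kept theirs. Leaving out 1 pair or control left 1 sample in a group, assumed to vary like the others. Other causes were not tested.

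Signs turned as follows, none of them of a called change. In primary myoblasts, leaving out a pair gave -0.249 to 0.156 for Id1, -0.241 to 0.100 for Id2, -0.315 to 0.520 for Id4 and -0.026 to 0.050 for Tcf12, the first bound without replicate 1, or 2 for Tcf12. Tcf12 became -0.019 with library size alone and -0.007 with DESeq2 on batch-corrected counts. The interaction of Id4 ran from -1.045 to 0.361 with a pair left out. Tcf3 between the controls became -0.055 with library size alone and -0.021 with no filter, and ran from -0.114 to 0.095 with a control left out. Over all genes, calls went from 1068 in C2C12 cells to 276 with DESeq2, 491 at an adjusted p-value under 0.01, 248 at 1.5-fold, 111 in the fit of all samples and 0 with no replicate block, and from 854 in primary myoblasts to 256, 363, 542, 716 and 0, with 295 under RLE and 236 under library size alone.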

Other observations

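Tcf7l1 and Tcf7l2, factors of the Wnt pathway that were formerly also called Tcf3 and Tcf4, are separate entries in the counts and no E proteins. Tcf7l1 was at 70.8 ± 8.13 CPM in control C2C12 cells and 41.5 ± 8.37 CPM in control primary myoblasts (SD, n = 2). Tcf7l2 was at 26.9 ± 6.39 and 25.6 ± 4.13 CPM (SD, n = 2). Neither passed edgeR's test after Septin9 siRNA, Tcf7l1 with adjusted p-values of 0.907 (C2C12) and 0.787 (primary myoblasts) and Tcf7l2 with 0.183 and 0.456.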
